A study of Mus musculus with 15 samples.

Results

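The genes described here are those of the Hoxa, Hoxb and Hoxc clusters in mouse embryonic fibroblasts, the connective-tissue cells grown out of embryos. Members were chosen by name, as the probes whose gene name on the array is 1 of 29 Hoxa, Hoxb and Hoxc symbols. Of these, 28 names were found, out of 27670 gene or transcript names on the array, with 36 probes out of 41174; 8 genes had 2 probes each, called here the brighter and the dimmer probe by their mean sample signal. Hoxc11 was not matched by name and was not analysed here.

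RNA was measured on 15 whole mouse genome arrays in 2 colours, each comparing a sample (red) with a common reference of pooled fibroblast RNA (green), and values below are log2 of sample over reference. Wild type, p27 knock-out and stathmin knock-out had 4 arrays each, and the double knock-out, which lacks both p27 and stathmin, had 3. p27, encoded by Cdkn1b, inhibits cyclin-dependent kinases, and stathmin, encoded by Stmn1, destabilises microtubules. All groups, and the reference, were C57B6 fibroblasts from embryos of 13.5 days post coitum at passage 3. The samples were collected at high confluence after serum starvation for 24 h. Per the labels, arrays of one genotype are biological replicates, and p-values measure the spread between them. How many embryos or litters a culture came from, and which parts of the embryo were used, is not given in the sources used here.

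Hox genes encode homeodomain transcription factors and lie in clusters in the order in which they are used along the body axis. Low-numbered (anterior) genes are active from the hindbrain and neck backwards, middle genes in the thorax, and high-numbered (posterior) genes in the lumbar, sacral and tail region and, for Hoxa and Hoxd, towards the tip of the limb. Fibroblasts in culture are known to keep much of the Hox pattern of the body site they came from, so the set of active Hox genes is commonly read as the positional identity of a culture. Hox proteins bind DNA together with Pbx and Meis cofactors, and their genes are set by retinoic acid, Cdx proteins and Polycomb and Trithorax complexes.

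The promoters of members that carry the contrasts below are shown first: Hoxa2 and Hoxa5, from the stretch of Hoxa2 to Hoxa7, Hoxb8, from the middle of Hoxb, and Hoxa13, at the posterior end of Hoxa. Each is a RefSeq window of build GRCm38.p6, from 250 bases before to 50 bases after the start site, 5′ to 3′ on the gene's own strand; in all 13 members, with 14 windows, were found in the table. Capitals mark every match, on either strand, to TGATNNAT (bound by Pbx-Hox pairs), TGACAG (Meis), TTTATG (Cdx and posterior Hox proteins) or TATAAA (the TATA box).
Hoxa2, chr6:52164782-52165081, minus strand: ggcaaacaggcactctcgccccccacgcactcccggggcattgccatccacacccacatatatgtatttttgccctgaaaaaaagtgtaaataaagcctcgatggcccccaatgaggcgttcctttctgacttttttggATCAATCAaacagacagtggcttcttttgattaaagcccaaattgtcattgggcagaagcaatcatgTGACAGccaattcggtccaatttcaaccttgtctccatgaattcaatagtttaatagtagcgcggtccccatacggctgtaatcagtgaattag
Hoxa5, chr6:52204538-52204837, minus strand: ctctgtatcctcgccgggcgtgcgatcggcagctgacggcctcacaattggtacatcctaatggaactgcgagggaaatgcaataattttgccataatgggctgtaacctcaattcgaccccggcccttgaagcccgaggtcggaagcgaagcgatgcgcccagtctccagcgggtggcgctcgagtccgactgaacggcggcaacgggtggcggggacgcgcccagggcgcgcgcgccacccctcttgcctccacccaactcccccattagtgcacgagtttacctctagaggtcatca
Hoxa13, chr6:52260831-52261130, minus strand: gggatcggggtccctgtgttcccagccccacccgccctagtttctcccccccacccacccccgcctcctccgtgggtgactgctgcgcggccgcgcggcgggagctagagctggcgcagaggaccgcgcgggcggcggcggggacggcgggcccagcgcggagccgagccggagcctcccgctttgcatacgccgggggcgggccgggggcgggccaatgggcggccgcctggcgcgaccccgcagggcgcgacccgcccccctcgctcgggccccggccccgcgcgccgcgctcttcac
Hoxb8, chr11:96281655-96281954, plus strand: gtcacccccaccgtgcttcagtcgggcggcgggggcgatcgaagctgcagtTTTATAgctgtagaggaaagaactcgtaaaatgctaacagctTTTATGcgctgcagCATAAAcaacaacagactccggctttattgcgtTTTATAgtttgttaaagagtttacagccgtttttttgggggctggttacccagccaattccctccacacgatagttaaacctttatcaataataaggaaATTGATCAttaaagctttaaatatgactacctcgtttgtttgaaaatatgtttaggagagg
The Hoxb8 window held 5 matches, none overlapping another, including 1 Pbx-Hox match just before the start site, and the Hoxa2 window held a Pbx-Hox and a Meis match. The Hoxa5 and Hoxa13 windows held none of these letters, and Hoxa13 was the richest of the member windows in CpG, with 45 CpG pairs against a median of 13.5 over the member windows and 7 over all 32851 promoters. Among the member windows 3 of 14 held TGATNNAT (8.85% of all promoters), 2 held TGACAG (19.2%), 2 held TTTATG (11.9%) and 2 held TATAAA (13.6%). A match describes the letters of the window and is no evidence of binding.

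Most of the Hox genes were detected in these fibroblasts. Of the 36 probes, 27 had a sample signal well above background on all 15 arrays, standing for 23 of the 28 genes, and 2 had one on no array. Those 2 were Hoxb1, a hindbrain gene printed in 10 spots, and Hoxc12, a gene of the posterior end of its cluster. Hoxb13, known from the prostate and tail, was detected on all 4 wild type and 3 of 4 p27 knock-out arrays, on 1 of 4 arrays lacking stathmin and on 2 of 3 lacking both. Hoxc13, needed for hair and nails, was detected on 4, 3, 3 and 1 arrays of the same groups. In all, 32 probes of 26 genes passed the filter of at least 3 arrays above background in at least 1 genotype and were tested; the dimmer probes of Hoxa4 (7 arrays) and Hoxb8 (1 array) did not pass. A probe that passes only through a group where it is high can be lower elsewhere because of that choice. Among tested probes this could concern Hoxa6, Hoxb13, Hoxc13 and the dimmer Hoxb2 and Hoxc10 probes, which were not above background on all arrays. Counts over the 32 tested probes are not counts over all members. The brighter Hoxb9 probe had a value on 1 of 4 wild type arrays, as the scanner software marked it as an outlier on the others; its comparisons with wild type rest on that array and the dimmer Hoxb9 probe is used instead.

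Across the series, arrays had a median sample signal of 251.9 to 452.4 and 59.3 to 78.9% of spots above background. Wild type 3 and 4 stood apart as a pair, with a correlation of 0.815 over all tested probes. The labels were checked on the targeted genes: 1 of 2 Stmn1 probes read 0.755 ± 0.103 in wild type (SD, n = 4), -2.78 ± 0.152 where stathmin was knocked out (n = 4) and -2.77 ± 0.0774 where both were (n = 3), with adjusted p = 1.75e-06 and 5.01e-06 by limma. The other Stmn1 probe differed by -0.41 (adjusted p = 0.916) and the tested Cdkn1b probe by -0.56 in p27 knock-out (adjusted p = 0.799) and -0.97 in double knock-out (adjusted p = 1); where these probes lie relative to the deleted parts is not given in the sources used here. Each genotype sat at 1 position of the slide throughout, so that the genotype and its place on the slide cannot be told apart. All 13 fibroblast and mesenchyme markers were tested. Their mean was -0.05 to 1.73 over the p27 knock-out arrays, highest on p27 knock-out 2, and -0.37 to 0.89 over the other 11 arrays. Of the other cell types, 14 of 14 macrophage and blood, 8 of 11 epithelial, 4 of 7 endothelial, 10 of 13 neuronal and glial and 8 of 11 skeletal muscle markers passed the filter; Epcam, Cdh1, Cldn4, Pecam1, Cdh5, Tie1, Pax6, Gfap, Elavl3, Myf5, Myh3 and Ckm did not.

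The clearest feature of the Hox genes was how far arrays of the same genotype lay apart, in blocks that followed the clusters. On p27 knock-out 2 nearly all of Hoxb and Hoxc and most of Hoxa2 to Hoxa7 were low while Hoxa10 to Hoxa13 were high; stathmin knock-out 2 and 4 showed a smaller version of the same pattern. p27 knock-out 1 showed the reverse within Hoxa, with Hoxa2 to Hoxa5 high and Hoxa10 to Hoxa13 low. p27 knock-out 2 gave the lowest value of all arrays for 21 of the 32 tested probes, among them 10 of 12 Hoxb and 7 of 8 Hoxc probes, and the highest for 4 of the 5 probes of Hoxa9 to Hoxa13. p27 knock-out 1 gave the highest value for 5 of the 7 probes of Hoxa2 to Hoxa7. The share of all tested probes with their lowest or highest value on these arrays was not counted. Array weights fitted on the tested probes were lowest for p27 knock-out 2, at 0.390, so that array stood apart beyond the Hox genes.

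**Figure D1:**
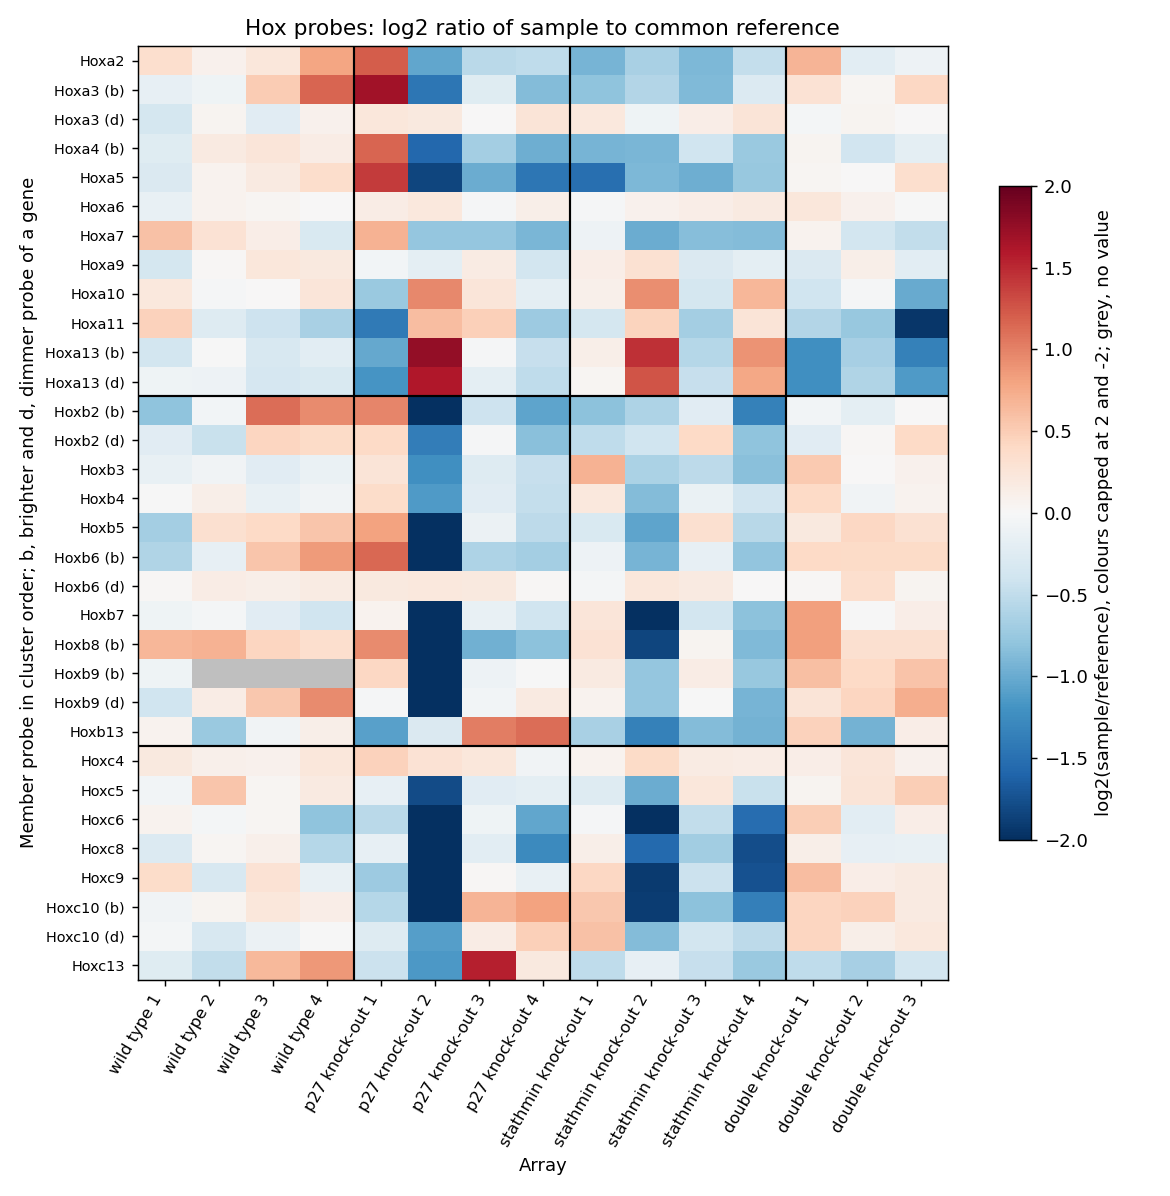
Log2 ratio of sample to reference of the 32 tested Hox probes (rows, in cluster order from low to high number, b and d marking the brighter and dimmer probe of a gene) on the 15 arrays (columns, by genotype); red is above and blue below the reference, and grey marks no value. The column of p27 knock-out 2 is dark blue over most of Hoxb and Hoxc and red for Hoxa10 to Hoxa13, with paler columns of the same kind for stathmin knock-out 2 and 4.

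Hoxa2, which patterns the hindbrain and the second pharyngeal arch, read 0.34, 0.08, 0.23 and 0.79 on wild type arrays 1 to 4 and 1.22, -1.03, -0.54 and -0.51 on the p27 knock-out arrays. It read -0.93, -0.65, -0.91 and -0.48 on the stathmin knock-out arrays and 0.68, -0.21 and -0.11 on the double knock-out arrays. Each stathmin knock-out array lay below each wild type array, while p27 knock-out spanned the whole range and double knock-out overlapped wild type. Hoxa5, which acts in the lung and the neck and upper thorax, read -0.29, 0.07, 0.18 and 0.35 in wild type and 1.40, -1.84, -0.996 and -1.44 in p27 knock-out. Its stathmin knock-out arrays read -1.51, -0.90, -0.98 and -0.76, again below all wild type arrays, and its double knock-out arrays 0.03, 0.01 and 0.33, within the wild type range. Hoxa7, a gene of the thoracic region, read 0.59, 0.29, 0.14 and -0.31 in wild type, 0.69, -0.78, -0.77 and -0.91 in p27 knock-out, -0.10, -0.99, -0.85 and -0.87 in stathmin knock-out and 0.07, -0.37 and -0.49 in double knock-out; these groups overlapped, with p27 knock-out 1 and stathmin knock-out 1 above the rest of their genotype. The brighter probes of Hoxa3, which acts in the third arch and the thymus, and of Hoxa4 had stathmin knock-out arrays wholly below wild type too, at -0.64 ± 0.27 against 0.35 ± 0.61 and -0.75 ± 0.25 against 0.08 ± 0.22 (SD, n = 4 each). Hoxa6 and the dimmer Hoxa3 probe hardly moved, with values from -0.14 to 0.23 and from -0.35 to 0.26 over all 15 arrays.

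At the posterior end of Hoxa the high and low arrays changed places. The brighter probe of Hoxa13, which shapes the hand and foot plate and the genital and gut outlets, read -0.36, -0.01, -0.33 and -0.21 in wild type and -1.03, 1.76, -0.02 and -0.45 in p27 knock-out. In stathmin knock-out it read 0.12, 1.45, -0.56 and 0.90, and in double knock-out -1.23, -0.67 and -1.34. All 3 double knock-out arrays lay below all wild type and all stathmin knock-out arrays, and stathmin knock-out 2 and 4 and p27 knock-out 2 stood highest. The dimmer Hoxa13 probe gave the same order of groups, at -0.21 ± 0.13 (n = 4), -0.07 ± 1.19 (n = 4), 0.41 ± 0.76 (n = 4) and -0.99 ± 0.34 (n = 3; all SD) in wild type, p27, stathmin and double knock-out. Hoxa11, which shapes the forearm and the uterus, read 0.46, -0.26, -0.41 and -0.65 in wild type, -1.41, 0.61, 0.48 and -0.73 in p27 knock-out, -0.35, 0.45, -0.68 and 0.27 in stathmin knock-out and -0.59, -0.76 and -1.94 in double knock-out. Its groups overlapped; the lowest value was that of double knock-out 3. Hoxa10, a gene of the lumbar region and the uterus, had its 3 double knock-out arrays (-0.40, -0.03 and -1.01) below the 4 wild type arrays (0.22, -0.02, 0.01 and 0.24), by a narrow margin between the nearest arrays. Hoxa9 stayed between -0.36 and 0.31 on every array, apart from its neighbours.

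In Hoxb the genes from Hoxb2 to Hoxb9 were low together on p27 knock-out 2. Hoxb8, studied in myeloid cells and in the spinal cord, read 0.66, 0.69, 0.43 and 0.34 in wild type and 0.95, -3.22, -0.97 and -0.82 in p27 knock-out on its brighter probe. It read 0.29, -1.84, 0.05 and -0.88 in stathmin knock-out and 0.82, 0.32 and 0.32 in double knock-out. The stathmin knock-out arrays all lay below the wild type arrays, p27 knock-out 1 lay above them, and double knock-out overlapped wild type. Hoxb7 read -0.09, -0.04, -0.23 and -0.40 in wild type, 0.07, -2.70, -0.14 and -0.40 in p27 knock-out, 0.24, -2.04, -0.36 and -0.83 in stathmin knock-out and 0.82, -0.01 and 0.13 in double knock-out. Only p27 knock-out 2 and stathmin knock-out 2 were below -1 for Hoxb7, and its double knock-out arrays lay above all wild type arrays. The dimmer Hoxb9 probe, of a gene of the thorax and rib cage, ranged from -0.40 to 0.94 in wild type, from -2.42 to 0.18 in p27 knock-out, from -0.93 to 0.07 in stathmin knock-out and from 0.26 to 0.72 in double knock-out. Hoxb2, of the hindbrain, read -3.17 on p27 knock-out 2 on its brighter probe, against a wild type range of -0.81 to 1.11. Hoxb3 and Hoxb4, the latter studied in blood stem cells, moved less, with lowest values of -1.23 and -1.14, both on p27 knock-out 2. Hoxb5 and the brighter Hoxb6 probe reached -2.40 and -2.60 there. Hoxb13 stood outside this block: it read 1.02 and 1.12 on p27 knock-out 3 and 4 and -1.36, its lowest, on stathmin knock-out 2.

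The Hoxc genes from Hoxc5 to Hoxc10 followed Hoxb. Hoxc9, which sets the thoracic motor columns, read 0.36, -0.31, 0.29 and -0.14 in wild type and -0.73, -3.78, 0.02 and -0.15 in p27 knock-out. In stathmin knock-out Hoxc9 read 0.41, -1.92, -0.43 and -1.75, and in double knock-out 0.62, 0.14 and 0.17. Its low values came from stathmin knock-out 2 and 4 and p27 knock-out 2, while p27 knock-out 1 and stathmin knock-out 3 lay only a little below wild type and the remaining arrays overlapped or exceeded it. Hoxc6, a gene of the upper thorax, read 0.07, -0.05, 0.04 and -0.80 in wild type, -0.53, -3.68, -0.08 and -1.04 in p27 knock-out, -0.02, -1.99, -0.49 and -1.52 in stathmin knock-out and 0.49, -0.22 and 0.13 in double knock-out. The same 3 arrays were lowest. Hoxc8, which acts in the motor neurons of the forelimb level, reached -2.86 on p27 knock-out 2, -1.56 on stathmin knock-out 2 and -1.77 on stathmin knock-out 4, against -0.57 to 0.10 in wild type. Hoxc10, of the lumbar and hindlimb level, read -2.92, -1.91 and -1.36 on these arrays on its brighter probe, against 0.67 and 0.81 on p27 knock-out 3 and 4 and -0.07 to 0.22 in wild type. Hoxc5 read -0.16, -1.79, -0.22 and -0.20 in p27 knock-out, all below its wild type values of -0.05, 0.56, 0.05 and 0.18. Hoxc4 stayed between -0.08 and 0.47 on all 15 arrays, and Hoxc13 was highest on p27 knock-out 3, at 1.55.

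Means over 4 runs of genes show the blocks on each array. Hoxa2 to Hoxa7 averaged -0.00 to 0.27 in wild type, -0.94 to 0.93 in p27 knock-out, -0.64 to -0.45 in stathmin knock-out and -0.14 to 0.20 in double knock-out, so that stathmin knock-out alone lay clear of wild type. Hoxa9 to Hoxa13 averaged -0.13 to 0.02 in wild type, -0.83 to 0.76 in p27 knock-out, -0.46 to 0.76 in stathmin knock-out and -1.10 to -0.33 in double knock-out, which alone lay clear of wild type. Hoxb2 to Hoxb9 averaged 0.12 ± 0.20 in wild type, -0.58 ± 1.08 in p27 knock-out, -0.43 ± 0.52 in stathmin knock-out (SD, n = 4 each) and 0.28 ± 0.12 in double knock-out (n = 3). Hoxc4 to Hoxc10 averaged 0.00 ± 0.12, -0.72 ± 1.07, -0.61 ± 0.65 and 0.18 ± 0.11 in the same order. In both of these runs the knock-out groups overlapped wild type. These means summarise members chosen by name and carry no test.

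**Figure D2:**
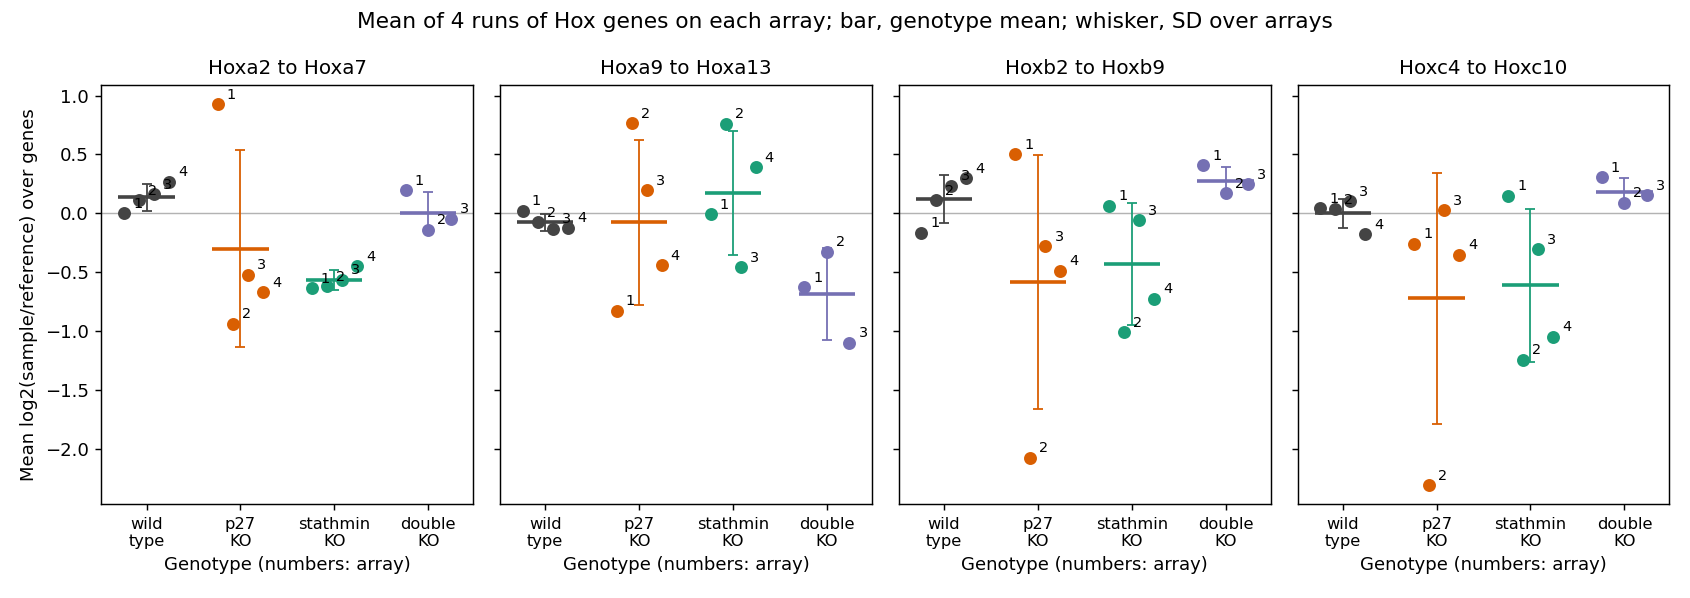
Mean log2 ratio over the genes of Hoxa2 to Hoxa7, Hoxa9 to Hoxa13, Hoxb2 to Hoxb9 and Hoxc4 to Hoxc10 (panels, vertical axis) on each array, by genotype (horizontal axis); points are arrays with their number, bars genotype means and whiskers the SD over arrays. p27 knock-out 2 is lowest in 3 panels, and highest in the panel of Hoxa9 to Hoxa13 at 0.76, where stathmin knock-out 2 is level with it.

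p27 knock-out against wild type asks what loss of p27 does to the cells. 0 of 32 member probes passed the threshold (limma, adjusted p under 0.05 over all 27700 tested probes; 0% of all tested probes passed). The member differences had a median of -0.53 against -0.00 over all tested probes, and 25 of 32 lay below 0 (50.3% of all tested probes). The median was -0.35 with scaling between arrays and -0.28 with array weights. At an unadjusted p under 0.05 there were 3 member probes (5.83% of all tested probes): Hoxb8, at -1.54 (SE 0.67, 95% interval -2.98 to -0.11, limma adjusted p = 0.797), Hoxc5, at -0.78 (SE 0.34, adjusted p = 0.797), and the dimmer Hoxa3 probe, at 0.28 (SE 0.13, adjusted p = 0.797). Groups did not overlap for Hoxc5, which was lower (1.35% of all tested probes were lower without overlap), and for no member that was higher (0.964%). p27 knock-out 2 weighed heavily: without it the median member difference was -0.20, Hoxb8 differed by -0.81, Hoxc6 by -0.37 in place of -1.15 and Hoxc9 by -0.34 in place of -1.21, and no member had an unadjusted p under 0.05, with 22 of 32 still below 0. Without p27 knock-out 1 the median was -0.78, and 13 of 32 members had an unadjusted p under 0.05. For counts at an unadjusted p under a changed setting, here and below, the share of all tested probes was not counted. Such counts are thus not read as a result about the members. Within the 4 slides Hoxb8 differed by -3.91 to 0.29 and was lower on 3.

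Loss of stathmin was compared with wild type in the same way. Again 0 of 32 members passed (0.00722% of all tested probes did), with a median of -0.55 and 25 of 32 below 0 (49.6% of all tested probes), including all 12 Hoxb probes. Genes of the stretch from Hoxa2 to Hoxa7 had the smallest p: Hoxa2 differed by -1.10 (SE 0.39, 95% interval -1.93 to -0.27, limma adjusted p = 0.916), Hoxa5 by -1.12 (SE 0.51, adjusted p = 0.916) and Hoxa7 by -0.88 (SE 0.33, adjusted p = 0.916). These were the 3 members with an unadjusted p under 0.05 (4.84% of all tested probes). The count was 11 without p27 knock-out 2, 6 without p27 knock-out 1 and 15 with array weights. Shares of all tested probes were not counted there. For 5 members all stathmin knock-out arrays lay below all wild type arrays, namely Hoxa2, Hoxa5, Hoxb8 and the brighter probes of Hoxa3 and Hoxa4 (1.75% of all tested probes); for none did they lie above (1.38%). Within slides Hoxa2 was lower on 4 of 4, by -1.28 to -0.73, and Hoxa5 on 4 of 4, by -1.22 to -0.97. Without stathmin knock-out 2 the median member difference was -0.34. Leaving out any array kept Hoxa2 between -1.20 and -0.96 and Hoxa5 between -1.24 and -0.96. Hoxa6 and the dimmer Hoxa3 probe, in the same stretch, differed by 0.10 and 0.23.

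In double knock-out against wild type, which asks what loss of both genes does, 0 of 32 members passed (0.00361% of all tested probes did). Of the 12 Hoxb and 8 Hoxc probes, 2 and 1 lay below 0. The median member difference was 0.04 and 12 of 32 lay below 0 (51.2% of all tested probes); with the slide as a block the count was 23 and the median -0.12, so the balance of directions rests on how slides are treated. The 5 probes of Hoxa9 to Hoxa13 all lay below 0, with a median of -0.78, led by Hoxa11 at -0.88 (SE 0.49, limma adjusted p = 1) and the brighter Hoxa13 probe at -0.86 (SE 0.56, adjusted p = 1). Hoxa10 and both Hoxa13 probes had double knock-out arrays wholly below wild type (3.48% of all tested probes), and Hoxb3, Hoxb7 and the dimmer Hoxc10 probe wholly above (2.99%). No member had an unadjusted p under 0.05 (2.26% of all tested probes).

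**Figure D3:**
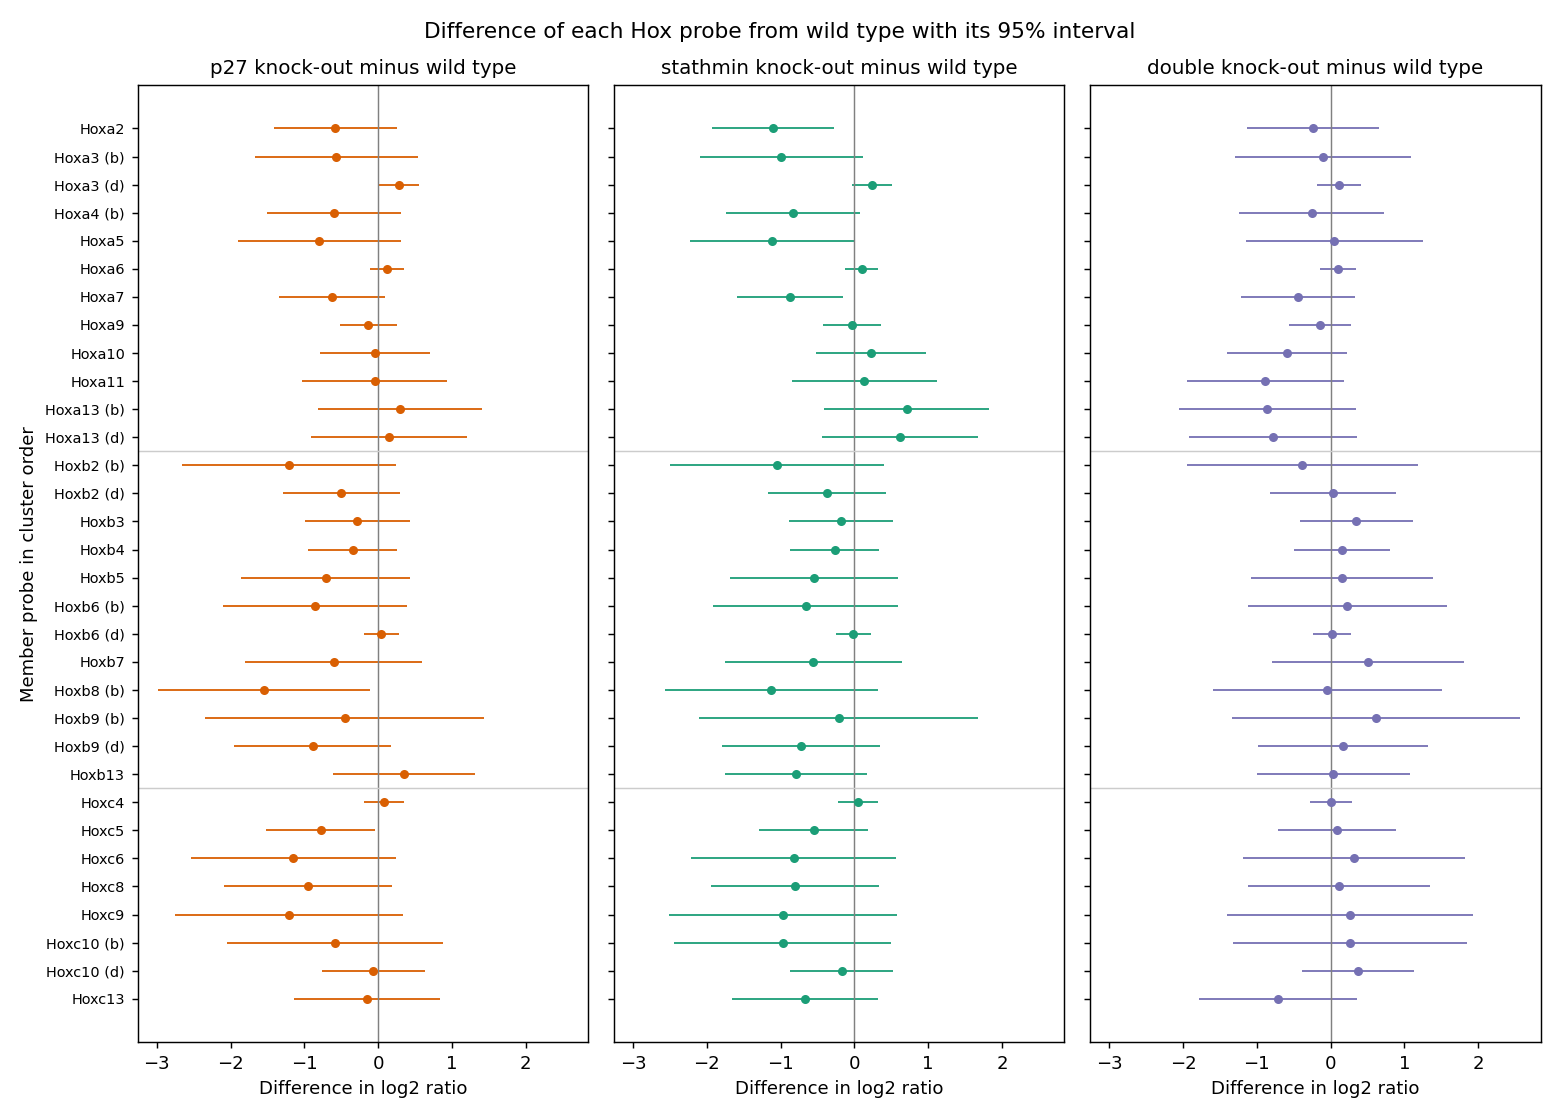
Difference in log2 ratio from wild type (horizontal axis) with its 95% interval for each of the 32 tested Hox probes (vertical axis, in cluster order) in p27, stathmin and double knock-out. Most points lie left of 0 in both single knock-outs, with a median of -0.53 and -0.55, and scatter about 0 in double knock-out except at Hoxa10 to Hoxa13.

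Comparing double with single knock-outs asks what loss of the second gene adds. Against stathmin knock-out 0 of 32 members passed, as did 0% of all tested probes, with a median of 0.60 and 8 of 32 below 0 (49.8%). All 12 Hoxb probes lay above 0 and all 5 probes of Hoxa9 to Hoxa13 below, with a median of -1.02. The 3 members with an unadjusted p under 0.05 (3.55% of all tested probes) were both Hoxa13 probes, at -1.56 (SE 0.56, limma adjusted p = 1) and -1.39 (SE 0.53, adjusted p = 1), and Hoxa10, at -0.81 (SE 0.38, adjusted p = 1). Without p27 knock-out 2 that count was 14, without p27 knock-out 1 it was 8, and with array weights 18. The matching shares of all tested probes were not counted. Double knock-out arrays lay wholly above stathmin knock-out for 9 member probes (2.26% of all tested probes) and wholly below for the 2 Hoxa13 probes (2.68%). The 9 were Hoxa2, Hoxa5, both Hoxb9 probes and the brighter probes of Hoxa3, Hoxa4, Hoxb2, Hoxb6 and Hoxb8. Against p27 knock-out 0 of 32 passed too (0.00361% of all tested probes), with a median of 0.48, or 0.07 without p27 knock-out 2, and 11 of 32 below 0 (49.7%). Hoxc5 differed by 0.87 (SE 0.37, limma adjusted p = 1), the 1 member with an unadjusted p under 0.05 (2.88%). Without p27 knock-out 1 there were 19 such members, with no share of all tested probes counted, and the median was 0.83. The dimmer Hoxb9 probe, Hoxc5 and Hoxc9 were wholly higher in double than in p27 knock-out (1.57%), and no member was wholly lower (1.62%). These comparisons share their arrays with the ones against wild type.

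The interaction, double knock-out minus both single knock-outs plus wild type, asks whether the losses add up. 0 of 32 members passed (0% of all tested probes did), with a median of 1.11 against -0.00 over all tested probes and 8 of 32 below 0 (50.2%). An unadjusted p under 0.05 was reached by 9 of 32 members (7.29% of all tested probes): Hoxa2, Hoxa5, the brighter Hoxa13 probe, Hoxb8, the dimmer Hoxb9 probe, Hoxc5, Hoxc6, Hoxc8 and Hoxc9. Hoxc5 had the smallest p, at 1.41 (SE 0.50, limma adjusted p = 0.682), Hoxb8 the largest size, at 2.63 (SE 0.98, adjusted p = 0.682), and Hoxa13 the opposite sign, at -1.86 (SE 0.76, adjusted p = 0.682). Without p27 knock-out 2 the median was 0.72, and without p27 knock-out 1 it was 1.495. The 9 members with an unadjusted p under 0.05 became 22 without p27 knock-out 1 and with array weights, and 15 without stathmin knock-out 1. They became 5 without wild type 3, stathmin knock-out 2 or double knock-out 3, and 4 without stathmin knock-out 4 or double knock-out 1. How the share of all tested probes moved in these fits was not counted. Within the 3 slides that held all 4 genotypes the term was positive on 3 for Hoxb8 (0.24 to 2.36) and Hoxc5 (0.30 to 1.31) and negative on 3 for Hoxa13 (-2.005 to -0.42). Over the 4 genotypes together 0 of 32 members passed limma's F test (0.00722% of all tested probes), and 0 had an unadjusted p under 0.05 (2.94%). With the slide as a block 0 of 32 passed in each of the 6 comparisons, as did 0.0108% of all tested probes in stathmin knock-out against wild type, 0.00722% in double knock-out against wild type and against p27 knock-out, and 0% in the other 3.

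The spread within genotypes was large for these genes. The median residual SD of the member probes was 0.705, against 0.322 over all tested probes; 27 of 32 members lay above that median and 17 above the 90th percentile of all tested probes, 0.699. Hoxc9 (1.11), the brighter Hoxc10 probe (1.06), the brighter Hoxb2 probe (1.05), Hoxb8 (1.04) and Hoxc6 (1.003) had the largest residual SD, and Hoxa6 (0.101), the dimmer Hoxb6 probe (0.116), Hoxc4 (0.147) and the dimmer Hoxa3 probe (0.150) the smallest. By genotype, the median SD of the members was 0.268 in wild type, 1.16 in p27 knock-out, 0.508 in stathmin knock-out and 0.218 in double knock-out, beside 0.231, 0.343, 0.322 and 0.214 over all tested probes. Members and background were thus close in wild type and double knock-out, further apart in stathmin knock-out and furthest in p27 knock-out. Without p27 knock-out 2 the p27 knock-out median was 0.503 (0.299 over all tested probes), and 8 of 32 members lay above the 90th percentile, now 0.650. The spread sat in the sample channel: the median SD over arrays was 0.784 for the sample and 0.0945 for the reference signal of the members. Over all tested probes these were 0.348 and 0.103. The sample channel varied more in 31 of 32 members and in 26669 of 27700 tested probes. The reference was common to all arrays, so this count is not particular to the members.

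**Figure D4:**
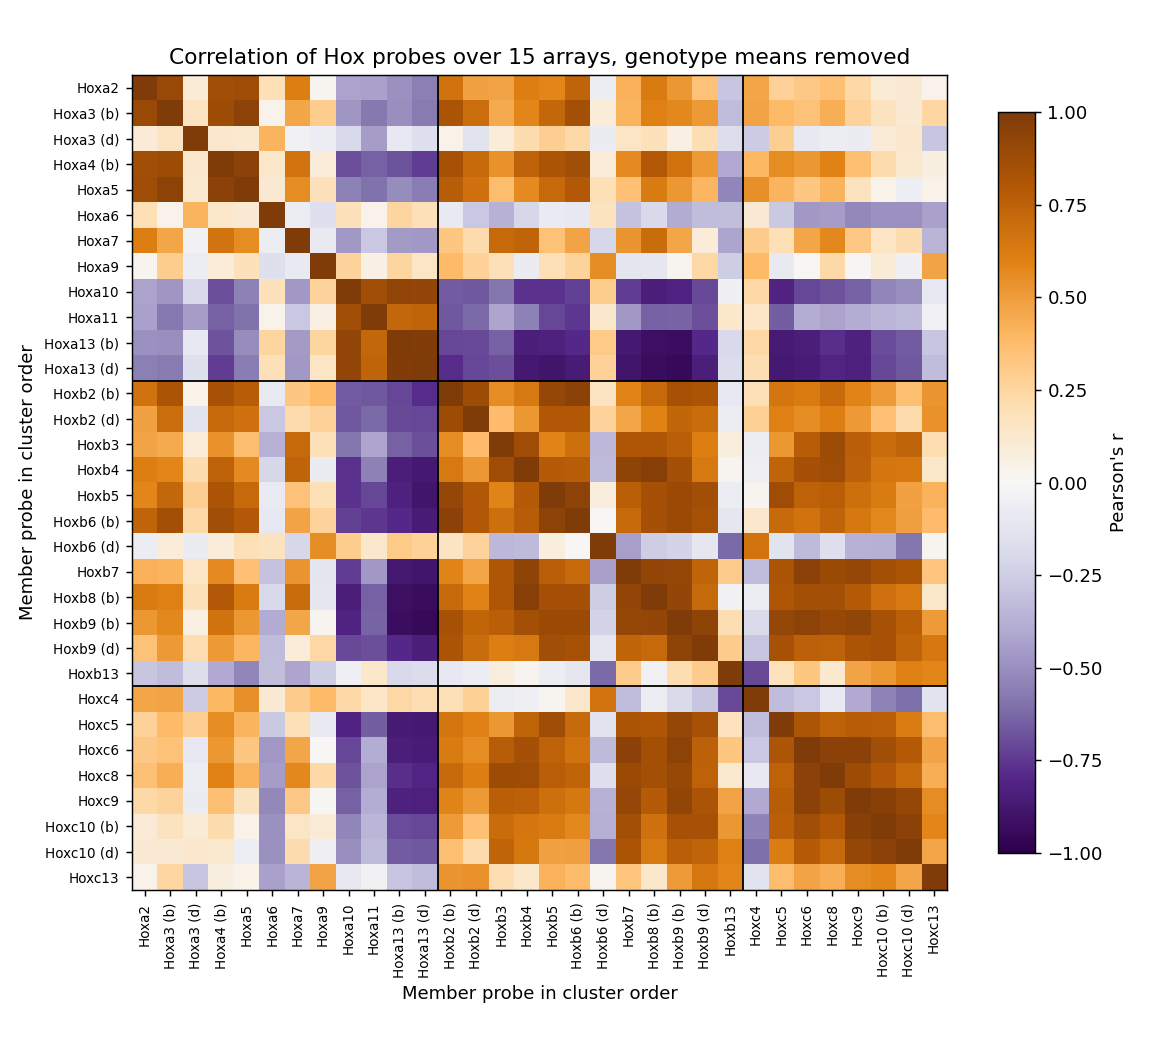
Pearson's r between each pair of the 32 tested Hox probes (both axes, in cluster order) over the 15 arrays after removal of the genotype means; orange is positive and purple negative. Hoxb2 to Hoxb9 and Hoxc5 to Hoxc10 form an orange block, and Hoxa10 to Hoxa13 a purple band against both; pairs of Hoxa9 to Hoxa13 have a median of 0.73 among themselves.

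Members moved together over arrays in blocks, described here by Pearson's r of the ratios after removal of genotype means; the points share arrays and the reference. The median r was 0.70 over 63 pairs within Hoxb, 0.62 over 27 pairs within Hoxc and 0.63 between Hoxb and Hoxc (96 pairs), beside 0.00 between members and all tested probes. It was 0.73 among the probes of Hoxa9 to Hoxa13, -0.67 between these and Hoxb, -0.41 between these and Hoxc, and -0.45 between them and Hoxa2 to Hoxa7. Hoxa2 to Hoxa7 went with Hoxb (0.41) more than with Hoxc (0.19). Single pairs reached 0.96 for Hoxb4 and Hoxb8, 0.95 for Hoxb7 and Hoxc6 and -0.92 for Hoxa13 and Hoxb8, which lie on different chromosomes in the last 2 cases. p27 knock-out 2 carried part of this: without it the medians were 0.36 within Hoxb, 0.23 within Hoxc, 0.30 between them and 0.67 among Hoxa9 to Hoxa13, and -0.49 between Hoxa9 to Hoxa13 and Hoxb. Between Hoxa9 to Hoxa13 and Hoxc the median was then -0.18, and between Hoxa9 to Hoxa13 and Hoxa2 to Hoxa7 it was -0.23. For Hoxa2 to Hoxa7 it was 0.28 with Hoxb and, with the sign turned, -0.13 with Hoxc. Probes of the same gene went together for Hoxa13 (r = 0.99), Hoxc10 (0.95) and Hoxb2 (0.88) but not for Hoxa3 (0.16) and Hoxb6 (0.01), where the dimmer probe was flat.

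Over the member probes p27 knock-out 2 was most like stathmin knock-out 4 (r = 0.90) and stathmin knock-out 2 (0.89), arrays of another genotype, with 0.44 and 0.24 over all tested probes. Double knock-out 1 and stathmin knock-out 2 were the most opposed (-0.82, and -0.23 over all tested probes). Several values of these arrays differed besides Hox. The mean of the 13 fibroblast and mesenchyme markers was 0.75, 0.89 and 1.73 on stathmin knock-out 2 and 4 and p27 knock-out 2, and at most 0.42 on the other 12. The macrophage and blood mean was -0.89, -1.88 and 1.81 on them, against -2.77 to 1.32 on the others, and the neuronal and glial mean 0.03, -0.27 and -0.66, against -0.41 to 0.17. The muscle mean was -0.53, -0.38 and -0.82 on them, its 3 lowest values, against -0.25 to 0.45 on the others. The epithelial mean was -0.80, -0.17 and -1.07 on them, against -0.86 to 0.55 on the others. The endothelial mean was -0.51, -0.85 and -0.34 on them, against -1.18 to 0.43. Xist was high on p27 knock-out 2, stathmin knock-out 1 and 2, double knock-out 1 and, with Y-linked Ddx3y, on wild type 1, and low on stathmin knock-out 4. Their part in the Hox values was not tested, except that with the Xist ratio as a covariate 0 of 32 members passed in each comparison and the median member differences from wild type were -0.52, -0.34 and 0.10 in p27, stathmin and double knock-out. Each array is a bulk sample, so fewer cells of a kind and less RNA per cell cannot be told apart.

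Genes that work with or upstream of Hox were counted in 5 lists, of which 0 members passed in any of the 6 comparisons, where 0% to 0.00722% of all tested probes did. Among the Hox cofactors, 0 of 9 had an unadjusted p under 0.05 in each comparison, beside 2.26% to 7.29% of all tested probes. The retinoic acid and Cdx, Polycomb and Trithorax and limb lists had 0 or 1 such gene in each comparison. Meis1, a cofactor of Hox proteins, read -1.93 on p27 knock-out 2 and -1.59 on stathmin knock-out 2, its lowest values. Meis1 read 0.38 to 0.61 in double knock-out (0.91 above p27 knock-out, limma adjusted p = 1). In the retinoic acid and Cdx list 12 of 17 genes on the array were tested, and Cdx1, Cdx2, Cdx4, Cyp26a1 and Rxrg did not pass the filter. Crabp2, which carries retinoic acid to the nucleus, had the smallest p in double knock-out against wild type, at -1.22 (limma adjusted p = 1), and Crabp1 read -2.85 and -2.70 on p27 and stathmin knock-out 2. For 27 Polycomb and Trithorax genes, which keep Hox clusters silent or active, the list medians of the difference stayed between -0.15 and 0.02 in the 6 comparisons. Of 18 limb and body-position factors Lhx2, an outgrowth factor of the limb bud, read 2.07 on p27 knock-out 2, 1.14 and 1.16 on stathmin knock-out 2 and 4 and -1.63, -0.24 and -2.21 in double knock-out, arrays on which Hoxa13 was also high and low; its interaction term was -2.86 (limma adjusted p = 0.682).

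The Hoxd cluster, with 9 of 9 genes tested and 0 called, held genes of both kinds; Hoxd4 and Hoxd13 are given as examples chosen after their values were seen. Hoxd4 read -2.45 on p27 knock-out 2 and -1.71 on stathmin knock-out 4, while Hoxd13, the limb-tip partner of Hoxa13, read 0.91 and 0.93 there and -2.07, -0.21 and -1.77 in double knock-out. Hoxd10 differed by -1.15 between double and stathmin knock-out (limma adjusted p = 1). Against wild type, an unadjusted p under 0.05 was reached by 0 of 9 Hoxd genes in p27 and in stathmin knock-out. Double knock-out had 2 of 9 against wild type (2.26% of all tested probes) and 2 of 9 against p27 knock-out (2.88%). It had 3 of 9 against stathmin knock-out (3.55%), and the interaction also had 3 of 9 (7.29%). These counts were higher than in the other 4 lists.

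A posterior-minus-anterior value was taken per array as the mean of the genes of paralog groups 9 to 13 minus that of groups 1 to 4 over the 3 clusters. Its value was -1.37 on p27 knock-out 1, 0.35, 0.67 and 0.55 on p27 knock-out 2 to 4, -0.23 to 0.09 in wild type, -0.16 to 0.26 in stathmin knock-out and -0.45 to -0.17 in double knock-out. p27 knock-out thus held both the lowest value and the highest. The posterior and anterior means were -0.64 and 0.73 on p27 knock-out 1 and -0.73 and -1.08 on p27 knock-out 2. They were 0.41 and -0.26 on p27 knock-out 3 and 0.01 and -0.54 on p27 knock-out 4. Both means were low on p27 knock-out 2, where Hoxb9, Hoxc9 and Hoxc10 in the posterior set were low and Hoxa10 to Hoxa13 high. Of 23248 other probes searched, those most like it over the 15 arrays were of Ccnh (r = 0.88), Olfr190 (0.83), Bhlhb9 (0.80), Tfap2b (0.80) and Lama4 (0.79). The most opposed were of Utp6 (-0.86), Prl3d1 (-0.86), Hsf1 (-0.85), Slc7a6os (-0.85) and Col19a1 (-0.84). Other probes of Ccnh gave 0.44, 0.39 and -0.39, of Utp6 0.23 and -0.14 and of Hsf1 -0.27 and -0.79. Another probe of Tfap2b gave 0.19, of Lama4 0.57 and of Col19a1 -0.74. Likeness chosen from so many probes thus carried over in part, to the other probes of Col19a1 and Lama4 and to 1 of those of Hsf1. It carried over poorly for Tfap2b, Ccnh and Utp6, and for Ccnh and Utp6 the sign turned on 1 probe.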

How the data were processed

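RNA was measured on 15 arrays, 1 per sample. Per the file headers, the authors' scanner files come from Agilent Feature Extraction 9.1.3.1, run with no background subtraction, and hold spot intensities and a log10 ratio of red to green. The authors' deposited value table holds log ratios, read as log2 from their agreement with the scanner ratios (r of 0.821 to 0.936 over arrays; column medians 0.0039 to 0.0522); how it was normalised is not given in the sources used here. The scale, centring and sign were taken from that comparison, not from a statement.

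Mean intensities were corrected by normexp (offset 50) and normalised by loess within arrays with limma 3.58.1 in R 4.3.3. Control spots and spots marked as outliers were left out and replicate spots averaged. The 27700 probes well above background in the sample channel on at least 3 arrays of a genotype were fitted with 4 genotype means over all 15 arrays (11 residual degrees of freedom), with Benjamini-Hochberg adjustment over all of them and a threshold of 0.05. Adjusted p-values below come from this limma fit, and its code was tested on simulated data. The number of arrays limits the precision.

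All members are named, with Stmn1 and Cdkn1b, the member of each list with the smallest p, and the 5 genes most and least like the posterior-minus-anterior value. Members and lists were chosen with earlier results of these data known. Alternatives were other background corrections, normalisations, filters, channels, probe choices, variance models, blocks and left-out arrays.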

Additional observations from a re-analysis of the deposited data

Results flagged for a closer look

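Among 95 groups of 4 arrays, 7 held an array whose gap to its nearest neighbour was large for the range of its group. Dixon's criterion was used at the 95% level, where chance gives about 1 in 20. The share over all tested probes was not counted. The groups also share arrays and hold members that move together, so the count is not read as a result about the members. In p27 knock-out, array 2 stood apart from the other 3 for Hoxb7 (-2.70, others -0.40 to 0.07), the dimmer Hoxb9 probe (-2.42, others -0.06 to 0.18) and Hoxc5 (-1.79, others -0.22 to -0.16). Array 1 of p27 knock-out stood above its group for Hoxa7, at 0.69 with the others between -0.91 and -0.77. Array 4 stood below it for the dimmer Hoxb6 probe, at 0.02 with the others between 0.19 and 0.21. In stathmin knock-out, array 1 read -0.10 for Hoxa7, with the others between -0.99 and -0.85. In wild type, array 4 read -0.80 for Hoxc6, with the others between -0.05 and 0.07. The double knock-out group, with 3 arrays, was too small for this criterion.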

How the results depend on the processing

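The count of called member probes was 0 in each comparison under each alternative run: of 32 members, or of 26 with 1 probe per gene and of 31 in the comparisons with wild type when wild type 1 was left out. With only the genotypes compared, 5 comparisons were fitted and the interaction was not. With the replicate block 0 members were called, as without it; same-numbered arrays had residual correlations of -0.259 to 0.415, over 0.1 in 12 of 21 pairs, and 5 of 15 arrays were closest to their own number, so the replicate numbers were not taken to pair cultures. Same-numbered wild type, p27 and stathmin knock-out arrays do share a slide, as does double knock-out 1, while double knock-out 2 and 3 lie on slides 3 and 4. Over all tested probes, the calls for p27 loss, stathmin loss and double loss from wild type, for double against each single knock-out (p27, then stathmin) and for the interaction were 0, 2, 1, 1, 0 and 0. They were 0, 3, 2, 2, 0 and 0 with the replicate or the slide block and 0, 13, 24, 2, 1 and 2 with array weights, which ran from 0.390 for p27 knock-out 2 to 3.96 for wild type 3; the cause was not tested. Leaving out 1 array at a time, the median member difference in the same order ranged from -0.78 to -0.20, -0.72 to -0.34, -0.03 to 0.11, 0.07 to 0.83, 0.45 to 0.75 and 0.72 to 1.495. Over all alternatives the count of members with an unadjusted p under 0.05 ranged, in the same order, from 0 to 13, 1 to 15, 0 to 7, 0 to 19, 1 to 18 and 4 to 22. The share of all tested probes was not counted under these alternatives, so the ranges are no result about the members. The median for double loss turned to -0.02 with array weights and -0.12 with the slide block, and that for double against p27 knock-out was 0.74 with median-centred processed signals. The smallest adjusted p of a member in any of these fits was 0.0668, for the interaction without p27 knock-out 1. Without p27 knock-out 2, a choice made after seeing the data, the median correlation over all pairs of members was 0.12 in place of 0.23, and the median residual SD of the members 0.539 in place of 0.705. With wild type 3 and 4 averaged these were 0.22 and 0.722. Of the 4 members without a test, 2 were above background on no array, so signal limits what can be said of Hoxb1 and Hoxc12.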
